A study of Mus musculus with 18 samples.

Results

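The 10 genes described here are the core of the Notch pathway in the vessel wall: the receptors Notch1, Notch2, Notch3 and Notch4, the ligands Jag1 and Dll4, and the target genes Hes1, Hey1, Hey2 and Heyl. They were taken by name from the 54281 genes of the deposited count table, and all 10 passed the filter on low counts that left 15210 genes for testing. RNA was sequenced from whole descending aortas, with intima, media and adventitia, of 18 male C57BL/6 mice. There were 6 HGPS mice, which carry the LMNAG609G allele that models Hutchinson–Gilford Progeria Syndrome, aged 64 to 75 d; 6 WT mice labelled young, of which 5 were 62 d old and replicate 6 was 95 d old; and 6 old WT mice aged 609 to 762 d. They are called HGPS, 2-mo WT and 24-mo WT below. The labels do not state the zygosity of the HGPS mice. Total counts ranged from 17838351 to 30844775 in HGPS, from 12413229 to 21016752 in 2-mo WT and from 13622602 to 19871697 in 24-mo WT. The point mutation cannot be read from counts per gene. Lmna itself had 577 CPM (counts scaled to the size of the library) in HGPS and 416 CPM in 2-mo WT.

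Notch receptors are cut when they bind a ligand on a neighbouring cell, and the released intracellular domain joins the DNA-binding protein RBPJ in the nucleus to switch on genes of the Hes and Hey families, which encode transcriptional repressors. In arteries, Notch1 and Notch4 are typical of endothelial cells and Notch3 of smooth muscle cells and pericytes, while Notch2 is found in smooth muscle among other cells. Jag1 is made by both layers and is needed for smooth muscle differentiation, and Dll4 marks arterial endothelium.

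In short, 5 members were lower in HGPS than in 2-mo WT aortas, namely Notch2, Notch3, Jag1, Hey2 and Heyl, and 1 member, Hey1, was higher. In 24-mo WT aortas, Notch2 and Hes1 were higher than in 2-mo WT and no member was lower. The call of Hey1 in HGPS and both calls with age lay near the threshold. Each was lost in several fits that left out 1 mouse. Smooth muscle marker genes were lower in HGPS by about as much as the 5 members that fell. Transcripts of long genes were also lower in the HGPS libraries, and 2 of the 6 members passed the test once that was a term of the fit. Both sets of values are given with the results.

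The promoters of 4 of the members that fell in HGPS are shown. These genes share the direction of that difference between groups. From mouse to mouse within groups, Notch2 had r = 0.847 with Notch3, 0.531 with Jag1 and 0.006 with Hey2. Jag1 had r = 0.338 with Notch3 and with Hey2, and Notch3 had r = -0.263 with Hey2. Shared regulation of these genes was not tested. The bases just before the start of transcription are printed 5′ to 3′ in the direction of the gene, from RefSeq on GRCm38.p6, for Notch2 (chr3:98013288-98013526, plus strand), Notch3 (chr17:32166891-32167140, minus strand), Jag1 (chr2:137116645-137116770, minus strand) and Hey2 (chr10:30842802-30843033, minus strand). Capitals mark TGGGAA, the core of the RBPJ site, read on either strand (TTCCCA on the other), and CACGAG, the N-box of Hes repressors, read on either strand (CTCGTG on the other).
Notch2: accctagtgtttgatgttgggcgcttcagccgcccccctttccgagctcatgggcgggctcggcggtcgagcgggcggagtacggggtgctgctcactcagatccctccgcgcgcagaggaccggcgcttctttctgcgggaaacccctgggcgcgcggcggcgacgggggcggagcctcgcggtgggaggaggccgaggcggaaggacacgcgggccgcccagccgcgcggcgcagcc
Notch3: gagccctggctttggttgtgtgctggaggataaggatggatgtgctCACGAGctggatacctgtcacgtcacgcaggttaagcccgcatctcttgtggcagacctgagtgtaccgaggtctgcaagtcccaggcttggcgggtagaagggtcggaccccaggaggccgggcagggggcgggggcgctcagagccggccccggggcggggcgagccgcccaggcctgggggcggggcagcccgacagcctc
Jag1: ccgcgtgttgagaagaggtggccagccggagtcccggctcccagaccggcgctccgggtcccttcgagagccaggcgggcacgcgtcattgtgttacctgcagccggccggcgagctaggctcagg
Hey2: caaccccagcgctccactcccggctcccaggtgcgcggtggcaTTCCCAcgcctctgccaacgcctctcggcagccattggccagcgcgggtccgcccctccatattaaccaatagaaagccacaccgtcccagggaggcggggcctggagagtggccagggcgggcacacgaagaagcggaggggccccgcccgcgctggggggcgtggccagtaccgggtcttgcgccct
Of the 7 members with a promoter in the table, 1, Hey2, held TGGGAA in the 250 bases before its start in RefSeq. The motif lay 207 bases before that start, and 21.6% of 32851 promoter windows of the same length held it. CACGAG was found in 1, Notch3, against 5.37% of windows, and the E-box CACGTG in 0 of 7, against 6.02%. The printed stretches leave out bases that GENCODE places inside the gene. They hold 239 bases for Notch2, 126 for Jag1 and 232 for Hey2, so the 207 bases are not counted from the end of the printed Hey2 stretch.

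Per unit of transcript length, a scale on which genes can be compared with each other, the members spanned a wide range in 2-mo WT. Levels are given as TPM, computed from the counts and the length of the longest coding transcript. Heyl stood at 64.5 ± 17.5 TPM (SD, n = 6), Notch2 at 52.9 ± 3.65, Hey2 at 47.7 ± 6.11 and Jag1 at 37.3 ± 5.42. With the union of exons as the length, Notch2 was at 62.7 TPM, Jag1 at 43.8 and Hey2 at 32.2, so that Jag1 came before Hey2, and Notch3 was at 14.1. On the first length, Notch3 came below them at 11.7 ± 0.511 TPM, Hes1 at 11.5 ± 3.88, Notch1 at 7.37 ± 1.61, Notch4 at 3.51 ± 1.02, Hey1 at 3.24 ± 0.873 and Dll4 at 1.16 ± 0.601. The 4 highest genes formed one block in which neighbours in the order overlapped between mice, and all 6 lower genes lay below that block in every 2-mo WT mouse. Notch3 and Hes1 overlapped, as did Hes1 and Notch1, Notch1 and Notch4, Notch4 and Hey1, and Notch4 and Dll4. In HGPS, Notch2 came first at 35.5 ± 4.37 TPM, overlapping with Heyl at 35.4 ± 8.62 TPM and with Hey2 and Jag1. Notch1 (8.45 ± 1.15 TPM) and Notch3 (7.43 ± 0.958 TPM) overlapped in HGPS as well. In 24-mo WT, Notch2 again came first, at 71.8 ± 14.4 TPM, overlapping with Heyl at 70.3 ± 16.2 TPM.

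**Figure D1:**
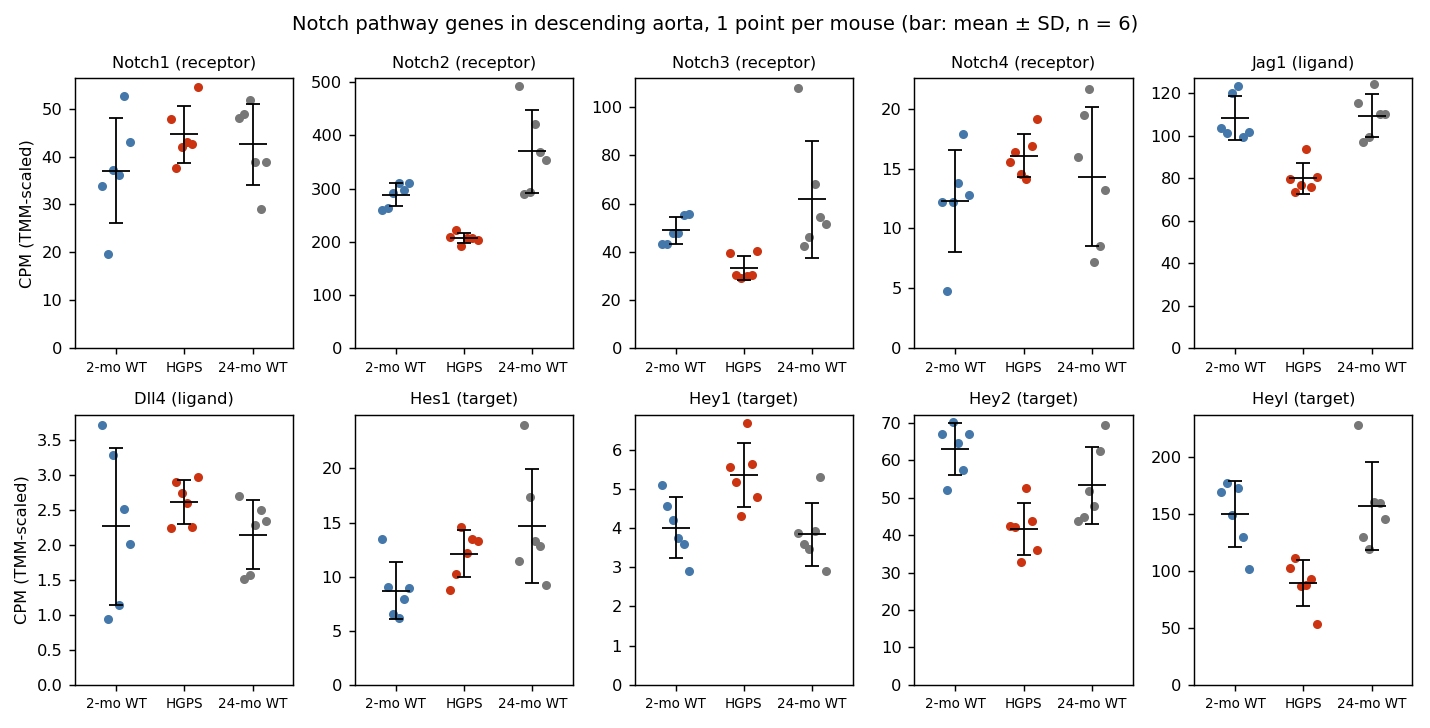
Each panel plots 1 member, with CPM scaled by TMM on the vertical axis from 0 and the 3 groups on the horizontal axis. Points are mice and bars are the mean ± SD of 6 mice. For Notch2, Notch3 and Jag1 all HGPS points lie below all 2-mo WT points.

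The first comparison asked what the HGPS allele does at 2 mo. A gene is said to differ where the edgeR test adjusted over all 15210 genes gave p under 0.05, and values are CPM after TMM scaling. With this test 6 of 10 members differed, against 43.2% of all genes tested. Of them 5 were lower, against 21.2% of genes, and 1 was higher, against 22%. The median log2 fold change of the members was -0.12, beside 0.003 for all genes. The 6 HGPS and 6 2-mo WT values did not overlap for 3 members, Notch2, Notch3 and Jag1, against 21.9% of genes. The stricter cut-offs of the study, a 1.5-fold change with an adjusted p under 0.001, were passed by 1 member, Hey2, against 9.50% of genes. At 1.51-fold it lay next to the cut-off, and no member passed in 8 fits that left out 1 mouse (HGPS replicates 1, 2, 3, 5 or 6, or 2-mo WT replicates 1, 3 or 4), with a filter of 50 counts, or with either covariate fit described below. With DESeq2, and without 24-mo WT replicate 1, 2 members passed. In the edgeR test 1445 of 15210 genes passed both cut-offs. The paper, which tested with DESeq2, reports more genes past the same cut-offs. A member that did not pass here may therefore be on the paper's own list. The share of members that differed was thus not far from that of genes at large.

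Among the receptors, Notch2 (chr3:98013527-98150361, plus strand, ENSMUSG00000027878) was the most abundant. Its level in the 2-mo WT mice ran from 259.6 CPM through a median of 294.9 to 310.8, and in HGPS from 191.8 through 207.1 to 222.0. Every HGPS mouse lay below every 2-mo WT mouse, and the difference was a log2 fold change of -0.48 ± 0.10 (SE), 1.40-fold lower, with an adjusted p of 0.000998. Notch3 (chr17:32120820-32166852, minus strand, ENSMUSG00000038146), the receptor of arterial smooth muscle, ran from 43.24 CPM through 47.87 to 55.78 in 2-mo WT and from 29.23 through 30.32 to 40.31 in HGPS. These groups were also apart, 1.47-fold lower in HGPS, at -0.56 ± 0.18 on the log2 scale (adjusted p = 0.0151). Within HGPS, replicates 1 and 6 were near 40 CPM and the other 4 near 30.

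Notch1 (chr2:26457903-26516663, minus strand, ENSMUSG00000026923), which governs arterial identity of endothelium, ran from 19.55 CPM through 36.60 to 52.56 in 2-mo WT and from 37.62 through 42.85 to 54.55 in HGPS. The groups overlapped and the difference of 0.27 ± 0.17 on the log2 scale did not pass the test (adjusted p = 0.227, 95% interval -0.10 to 0.63). Notch4 (chr17:34564268-34588503, plus strand, ENSMUSG00000015468), a receptor largely confined to endothelium, ran from 4.798 CPM through 12.52 to 17.91 in 2-mo WT and from 14.10 through 15.96 to 19.12 in HGPS. Its difference of 0.39 ± 0.26 did not pass either (adjusted p = 0.235, interval -0.16 to 0.93). In both genes the lowest value was 2-mo WT replicate 2, which also had the lowest sum of 10 endothelial markers, 727.8 CPM against up to 1584 CPM in that group. Without that mouse the differences were 0.13 for Notch1 and 0.22 for Notch4.

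Of the ligands, Jag1 (chr2:137081456-137116644, minus strand, ENSMUSG00000027276) fell in HGPS. It ran from 99.46 CPM through 102.7 to 123.2 in 2-mo WT and from 73.23 through 78.12 to 93.79 in HGPS. The groups did not overlap, and the log2 fold change was -0.43 ± 0.08, 1.35-fold lower (adjusted p = 0.000188), with the smallest error of any member. Dll4 (chr2:119325784-119335962, plus strand, ENSMUSG00000027314) was scarce, with 14 to 81 counts per library in 2-mo WT. It ran from 0.948 CPM through 2.26 to 3.72 in 2-mo WT and from 2.24 through 2.67 to 2.97 in HGPS, all within the 2-mo WT range. With an interval of -0.37 to 0.76 on the log2 scale (adjusted p = 0.592), a change of Dll4 of up to about that size was not detectable at this depth. Its value of 0.19 ran from 0.031 without 2-mo WT replicate 2 to 0.40 without replicate 1.

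The 4 targets did not move one way. Hey2 (chr10:30832359-30842801, minus strand, ENSMUSG00000019789), a repressor of vascular smooth muscle and arterial endothelium, ran from 52.07 CPM through 65.79 to 70.21 in 2-mo WT and from 32.94 through 42.26 to 52.72 in HGPS. In 5 of 6 HGPS mice it lay below all 2-mo WT mice, and replicate 4 reached just above the lowest of them; the fold change was 1.51-fold lower, -0.59 ± 0.12 on the log2 scale (adjusted p = 0.000677). Heyl (chr4:123233556-123249875, plus strand, ENSMUSG00000032744), a target of Notch3 in smooth muscle, ran from 101.9 CPM through 159.0 to 176.6 in 2-mo WT and from 52.99 through 90.19 to 111.4 in HGPS. It was lower by 1.68-fold, -0.75 ± 0.17 on the log2 scale (adjusted p = 0.00182), with 4 of 6 HGPS mice below all 2-mo WT mice. The lowest was HGPS replicate 6.

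Hey1 (chr3:8663359-8667256, minus strand, ENSMUSG00000040289), a target in endothelium and other cells, went the other way. It ran from 2.89 CPM through 3.96 to 5.10 in 2-mo WT and from 4.32 through 5.36 to 6.69 in HGPS, with 4 of 6 HGPS mice above all 2-mo WT mice. The rise of 1.34-fold, 0.42 ± 0.16 on the log2 scale (adjusted p = 0.0385), rested on 46 to 214 counts per library in these groups. Leaving out any 1 of 8 mice (HGPS replicates 1, 2, 4 and 5 and 2-mo WT replicates 3 to 6) took the adjusted p to between 0.0506 and 0.0968. Hes1 (chr16:30064384-30067796, plus strand, ENSMUSG00000022528), the target used by most cell types, ran from 6.17 CPM through 8.43 to 13.5 in 2-mo WT and from 8.81 through 12.8 to 14.6 in HGPS. Its difference of 0.47 ± 0.21 did not pass (adjusted p = 0.0808). The single high 2-mo WT mouse was replicate 1, and without it the difference was 0.64 with an adjusted p of 0.0174. With the length covariate described below the difference was 0.0011 (adjusted p = 0.998), and with the marker covariates 0.37 (adjusted p = 0.375).

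**Figure D2:**
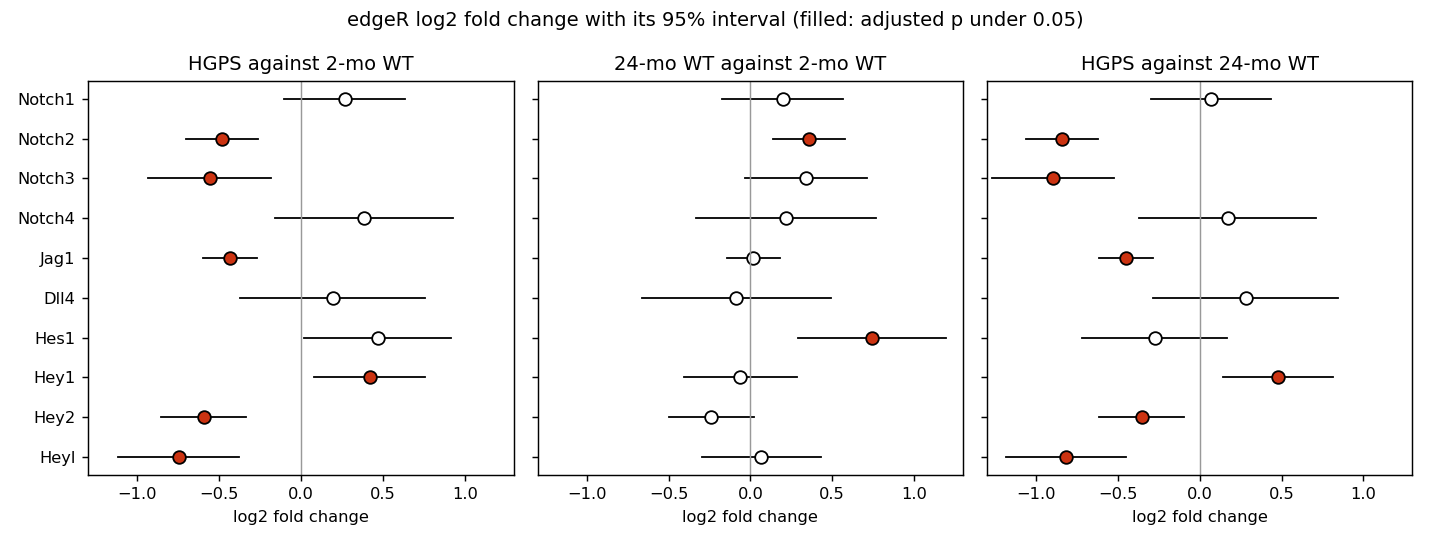
The log2 fold change from edgeR is on the horizontal axis and the 10 members are on the vertical axis, with 1 panel for each comparison. Lines are 95% intervals and filled points have an adjusted p under 0.05, which are 6 members in HGPS against 2-mo WT, 2 in 24-mo WT against 2-mo WT and 6 in HGPS against 24-mo WT.

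In bulk tissue, fewer cells of a type and less RNA per cell cannot be told apart, so the members were set beside markers of the cell types of the wall. All 10 listed smooth muscle markers were measured, and none was at 0. Of them 8 were lower in HGPS and 0 higher, and their summed level ran from 24480 to 33350 CPM in HGPS against 38060 to 47510 CPM in 2-mo WT, with no overlap. The mean log2 CPM of the list differed by -0.62. Relative to that mean, the members that fell stood close to 2-mo WT: the difference between the groups was 0.14 for Notch2, 0.06 for Notch3, 0.18 for Jag1, 0.01 for Hey2 and -0.14 for Heyl on the log2 scale. For each of these 5 genes the groups overlapped on this scale. Relative to the same markers Notch1 was higher in HGPS by 0.94, Notch4 by 1.10 and Hey1 by 1.04, each with no overlap. Hes1 was higher by 1.12 and Dll4 by 0.96, with overlapping groups. Because the marker mean itself was lower in HGPS, a gene unchanged per total counts comes out higher on this scale. Among these genes Hey1 alone passed the test per total counts.

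The 10 endothelial markers moved little. Their sum ran from 1044 to 1435 CPM in HGPS and from 727.8 to 1584 CPM in 2-mo WT, with 1 marker higher and 0 lower. Relative to endothelium, Notch1 differed by 0.27, Notch4 by 0.43, Dll4 by 0.30 and Hey1 by 0.37, all with overlapping groups. Of 6 arterial endothelial markers, 1 was lower, and the summed level of the list ran from 192.6 to 248.4 CPM in HGPS and from 156.8 to 260.9 CPM in 2-mo WT.

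Other cell types moved too. All 5 measured pericyte markers of 6 listed were lower in HGPS (summed level 1347 to 1815 CPM against 2373 to 2911 CPM in 2-mo WT), as were 6 of 9 fibroblast markers (2407 to 3251 CPM against 3618 to 4058 CPM). Of 8 macrophage markers, 7 were higher (685.1 to 999.4 CPM against 426.0 to 625.0 CPM), and so were all 7 brown fat markers (452.2 to 1683 CPM against 105.2 to 596.7 CPM). Of 8 skeletal muscle markers 3 were measured, with sums of at most 6.341 CPM in HGPS and 4.706 CPM in 2-mo WT, and 1 was higher and 1 lower. With the brown fat and skeletal muscle scores as covariates, Hey2 was at -0.36 on the log2 scale (adjusted p = 0.114) and Hey1 at 0.40 (adjusted p = 0.221), and neither passed. The part that these cell types have in the other differences was not tested.

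**Figure D3:**
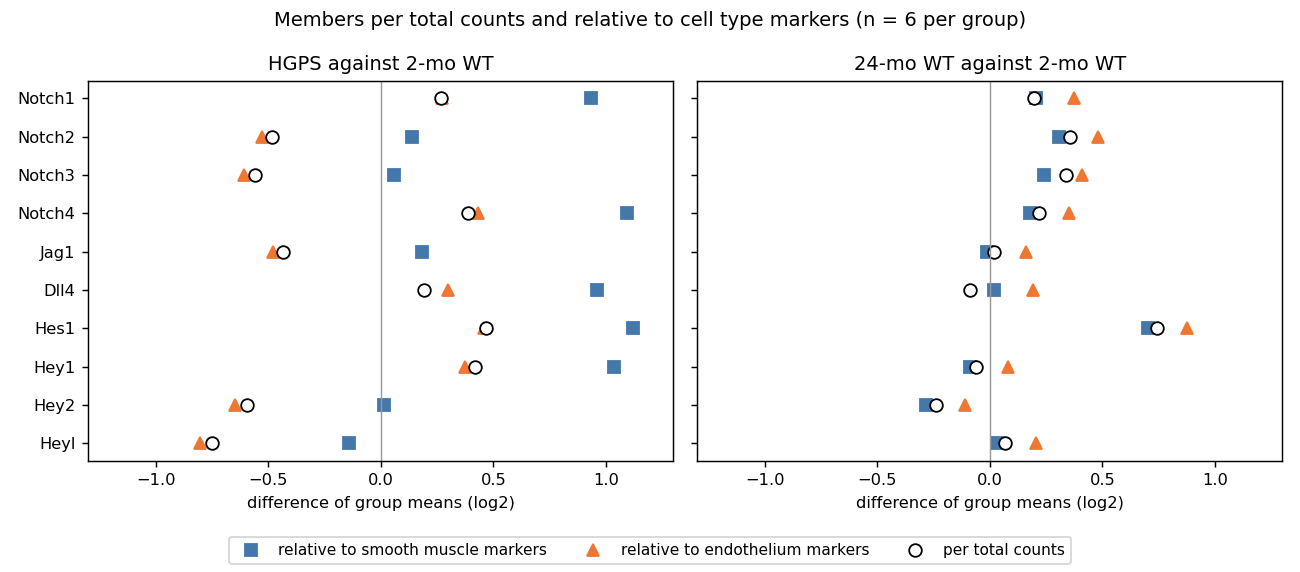
Open circles give the log2 fold change of each member per total counts, squares the difference of group means relative to the smooth muscle markers and triangles that relative to the endothelium markers (log2, 6 mice per group). In HGPS against 2-mo WT, Notch2, Notch3, Jag1, Hey2 and Heyl lie left of 0 per total counts and between -0.14 and 0.18 relative to smooth muscle.

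A second measured feature moved with the HGPS libraries. The median deviation from 2-mo WT of 795 genes with transcripts of 8000 bases or more, minus that of 3236 genes under 2000 bases, was between -0.54 and -0.09 in the HGPS libraries, against -0.18 to 0.07 in 2-mo WT and -0.09 to 0.31 in 24-mo WT (log2). The members that fell have transcripts of 10500 bases (Notch2), 8016 (Notch3), 5612 (Jag1), 4537 (Heyl) and 2550 (Hey2). The members that did not fall have transcripts of 9488 bases (Notch1), 6591 (Notch4), 3747 (Dll4), 2423 (Hey1) and 1468 (Hes1). With this difference as a covariate, a fit added after the data were seen, 2 members differed in HGPS against 2-mo WT, Jag1 at -0.25 (adjusted p = 0.0405) and Hey2 at -0.51 (adjusted p = 0.0352). Notch2 was then at -0.18 (adjusted p = 0.209), Notch3 at -0.11 (adjusted p = 0.720), Heyl at -0.51 (adjusted p = 0.114) and Hey1 at 0.54 (adjusted p = 0.0707). The covariate itself differs between the groups, so the genotype and this feature of the libraries cannot be fully told apart.

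The make-up of the receptors within a mouse does not depend on the total count. As shares of the summed TPM of the 4 receptors, Notch2 made up 70.1% ± 3.34 (SD, n = 6) in 2-mo WT and 63.6% ± 3.08 in HGPS, and Notch3 15.5% ± 0.719 and 13.3% ± 1.48. Notch4 took 4.65% ± 1.35 in 2-mo WT, with a range of 2.19% to 6.24%, and 7.87% ± 0.646 in HGPS, with a range of 7.07% to 8.78%. Every HGPS mouse thus had a larger share of Notch4 than any 2-mo WT mouse. A share also rises where the other genes of the sum are lower, as Notch2 and Notch3 were. Per total counts Notch4 itself did not pass the test (adjusted p = 0.235). Notch1 took 9.77% ± 2.13 and 15.2% ± 1.55, with the groups overlapping only between 12.6% and 12.7%.

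Among the targets, the share of Hey1 was 2.52% ± 0.283 in 2-mo WT and 4.77% ± 0.550 in HGPS. The HGPS range of 4.07% to 5.40% lay above all 2-mo WT mice, which reached 2.81%. The share of Hes1 was 9.06% ± 2.37 in 2-mo WT and 18.1% ± 4.78 in HGPS, again with no overlap. Per total counts Hes1 did not pass the test (adjusted p = 0.0808), while Hey2 and Heyl were lower. Hes1 (1468 bases) and Hey1 (2423 bases) also have the shortest transcripts of the targets. With the length covariate in the edgeR fit, Hes1 differed by 0.0011 (adjusted p = 0.998) and Hey1 by 0.54 (adjusted p = 0.0707). Heyl was at 50.2% ± 6.07 in 2-mo WT and 41.9% ± 6.39 in HGPS. In 24-mo WT the shares overlapped with those of 2-mo WT for all 4 receptors and all 4 targets. Between HGPS and 24-mo WT the shares overlapped for every gene but Hey1, which was higher in HGPS. In 24-mo WT the share of Notch4 ran from 2.03% to 7.75% and that of Hes1 from 9.42% to 25.6%. These shares were described without a test. They were not adjusted for the difference between long and short transcripts, and its part in them was not tested.

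**Figure D4:**
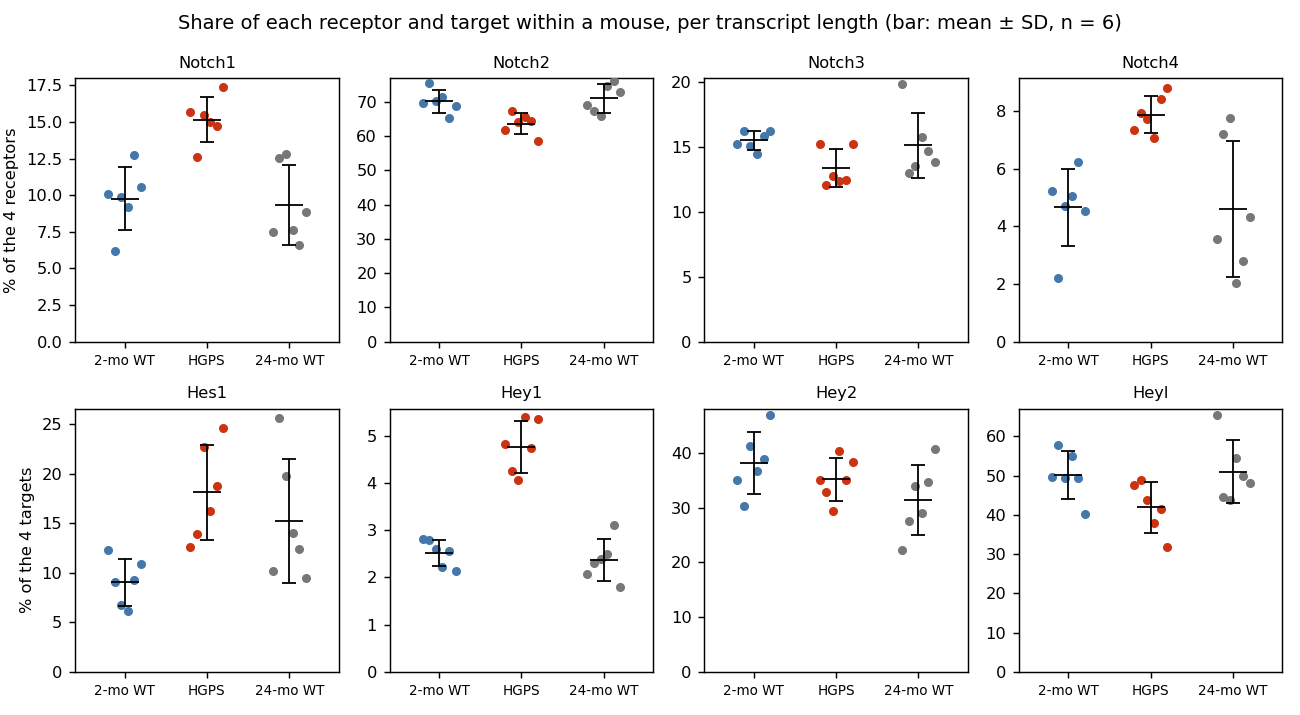
The vertical axis of each panel gives the percent of 1 gene in the summed TPM of the 4 receptors (top row) or the 4 targets (bottom row) within a mouse, from 0. Points are mice and bars are the mean ± SD of 6 mice. The HGPS points for Notch4, Hes1 and Hey1 lie above all 2-mo WT points.

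The second comparison asked what normal aging does. In 24-mo against 2-mo WT, 2 of 10 members differed, against 11.7% of genes, both higher, against 6.29%, and 0 lower, against 5.38%. None passed the cut-offs of the study, against 2.00% of genes, and the groups overlapped for all 10, against 6.28% of genes apart. The median log2 fold change of the members was 0.13, beside 0.008 for all genes. Notch2 ran from 289.5 CPM through 362.0 to 492.2 in 24-mo WT. It was higher than in 2-mo WT by 1.28-fold, 0.36 ± 0.10 on the log2 scale (adjusted p = 0.0287), with 4 of 6 old mice above all young mice. Hes1 ran from 9.25 CPM through 13.0 to 24.0 and was higher by 1.67-fold, 0.74 ± 0.21 (adjusted p = 0.0273), with 2 of 6 old mice above all young mice.

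Both calls lay near the threshold. Notch2 did not pass without 24-mo WT replicate 1 (0.26, adjusted p = 0.0589) or replicate 4 (0.32, 0.0686), or without 2-mo WT replicate 1 (0.33, 0.0620) or replicate 2 (0.33, 0.0633). Hes1 did not pass without 24-mo WT replicate 2 (0.55, adjusted p = 0.0753) or replicate 3 (0.69, 0.0548), or without 2-mo WT replicate 3 (0.68, 0.0633), replicate 4 (0.67, 0.0634) or replicate 5 (0.71, 0.0582). The highest 24-mo WT mouse for Notch2 was replicate 1, which was also the highest for Heyl, at 227.6 CPM, and for Notch3, at 108.0 CPM against a group median of 52.91. Its library also had the largest excess of long over short transcripts, 0.31. With the length covariate both calls with age passed, Notch2 at 0.24 (adjusted p = 0.0451) and Hes1 at 0.90 (adjusted p = 0.00254). With the marker covariates Notch2 did not pass (0.24, adjusted p = 0.308). Neither gene passed when only the groups compared were fitted (adjusted p = 0.0650 for Notch2 and 0.0517 for Hes1).

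The other 8 members had adjusted p-values from 0.226 to 0.919. Notch3 was at 0.34 ± 0.17, Notch1 at 0.20 ± 0.17, Notch4 at 0.22 ± 0.26 and Hey2 at -0.24 ± 0.12 on the log2 scale. Single mice moved some of these values: Notch3 was at 0.10 without 24-mo WT replicate 1, and Notch1 at 0.066 and Notch4 at 0.050 without 2-mo WT replicate 2. Jag1 was the most tightly bounded, at 0.02 with an interval of -0.15 to 0.18. Of the smooth muscle markers, 0 of 10 passed the test with age, with a summed level of 38330 to 43720 CPM. Pericyte markers were higher in sum (4584 to 6148 CPM), with 2 of 5 higher and 1 lower. Of 9 fibroblast markers 5 were lower, and none of the 10 endothelial markers differed, with sums from 612 to 1635 CPM. Notch4 spread most for its mean, from 7.194 to 21.69 CPM.

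The direct comparison of HGPS with 24-mo WT is also the test of the difference between the effects of HGPS and of age, since both are measured against the same 2-mo WT mice. Here 6 of 10 members differed, against 47.3% of genes, with 5 lower, against 23.6%, and 1 higher, against 23.8%. The cut-offs of the study were passed by 3, Notch2, Notch3 and Heyl, against 12.1%, and 4 had no overlap between groups (these 3 and Jag1), against 22.2%. The median log2 fold change was -0.32, beside -0.010 for all genes. Notch2 was 1.79-fold lower in HGPS, -0.84 ± 0.10 on the log2 scale (adjusted p = 3.1e-06), Notch3 1.86-fold lower (-0.90 ± 0.18, adjusted p = 0.000367) and Heyl 1.76-fold lower (-0.82 ± 0.17, adjusted p = 0.000738).

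Jag1 was 1.37-fold lower in HGPS than in 24-mo WT (adjusted p = 9.22e-05) and Hey2 1.28-fold lower (adjusted p = 0.0217), while Hey1 was 1.39-fold higher (adjusted p = 0.0176). Hey2 did not pass without HGPS replicate 3 (-0.29, adjusted p = 0.0583) or without 24-mo WT replicate 5 (-0.31, 0.0501) or 6 (-0.27, 0.0597). Notch1, Notch4, Dll4 and Hes1 did not pass the test, with adjusted p-values of 0.768, 0.608, 0.404 and 0.289. Without 24-mo WT replicate 2 the difference of Hes1 was -0.092 in place of -0.27. Smooth muscle markers were lower in HGPS here as well, 8 of 10, with a difference of -0.65 in their mean, and relative to them Notch2 differed by -0.17, Notch3 by -0.18 and Heyl by -0.17, all overlapping. With the difference between long and short transcripts as a covariate, 2 members differed: Notch2 at -0.42 (adjusted p = 0.0184) and Hes1 at -0.90 (adjusted p = 0.0202).

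How the members moved from mouse to mouse within groups was described by the correlation of their deviations from the group means over the 18 mice. Genes of a mouse share its library depth and tissue make-up. The difference between long and short transcripts also varied within groups, from -0.09 to 0.31 in 24-mo WT. Its part in these correlations was not tested. Among members, Notch1 and Notch4 (r = 0.863) and Notch2 and Notch3 (r = 0.847) varied most alike, and Notch2 and Hes1 most oppositely (r = -0.629). With the endothelial markers Notch4 had r = 0.798, and 0.688 without 2-mo WT replicate 2. Notch1 had r = 0.591 with them, and 0.337 without that mouse. By Spearman correlation the values were lower, 0.554 for Notch4 and 0.418 for Notch1. With the smooth muscle markers r was 0.487 for Notch2, 0.320 for Notch3 (0.139 without 24-mo WT replicate 1), 0.288 for Hey2, 0.221 for Jag1 and 0.164 for Heyl. Notch2 had an r of -0.510 with the endothelial markers. Hey1 had r = -0.440 with the endothelial and -0.014 with the smooth muscle markers.

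Over 10708 genes, those nearest to Notch1 were Eng (r = 0.891), the endothelial co-receptor endoglin, Itpr3 (0.863) and Notch4 (0.863). Those nearest to Notch4 were Megf6 (0.948), Krt80 (0.928) and Arhgap31 (0.923). For Notch2 they were Cacna1c (0.955), the pore of the L-type calcium channel of smooth muscle, Fnbp1 (0.940) and Prpf8 (0.933), and for Notch3 they were Trrap (0.942), Prrc2a (0.941) and Ltbp3 (0.921). Hey2 was nearest to Edn1 (0.837), which encodes endothelin, followed by Rsrc2 (0.834) and Fpgt (0.821). Heyl was nearest to Ccdc9b (0.913), Ky (0.895) and Msl3l2 (0.873). The nearest genes of Jag1 were Tpcn2 (0.828), Btc (0.803) and Slc7a2 (0.791), those of Dll4 Ablim3 (0.748), Met (0.742) and Tmem45b (0.735), those of Hes1 included Reep4 (0.833) and Id3 (0.800), and those of Hey1 Pmp22 (0.813), Gm14305 (0.802) and Pid1 (0.790). These neighbours depend on the measure: 10 of the 30 were also among the nearest 3 by Spearman correlation, and for Notch1, Notch2 and Hey1 none was. Spearman's rho was 0.771 for Notch1 with Eng, 0.647 with Itpr3 and 0.728 for Notch4 with Arhgap31.

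Beyond the members, 57 genes of the pathway were listed by role and 50 could be tested. In HGPS against 2-mo WT 20 of the 50 differed, with 6 higher and 14 lower, beside the 43.2% of all genes, and their median log2 fold change was -0.08. In 24-mo against 2-mo WT 9 differed, beside 11.7% of all genes, with 4 higher and 5 lower (median -0.005). In HGPS against 24-mo WT 23 of the 50 differed, beside 47.3% of all genes, with 8 higher and 15 lower (median -0.13). The 7 untested genes, Dll3, Dlk1, Dlk2, Hes2, Hes3, Hes5 and Hes7, had at most 31 counts over all 18 libraries.

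Of the 3 other ligands tested, 1 was higher and 2 lower in HGPS, beside 22% and 21.2% of all genes. With age 1 was higher and 1 lower, beside 6.29% and 5.38%. Dll1, a Delta-type ligand, had a mean of 7.40 ± 2.61 CPM in the 2-mo WT mice and a lower one in HGPS, 4.50 ± 1.06 CPM (-0.73 ± 0.25, adjusted p = 0.0232), and stood at 0.018 with age (adjusted p = 0.976); it falls outside the naming rule and was named after its values were seen. Dner, a membrane ligand of Notch known mostly from neurons, stood at 3.69 ± 0.715 CPM (SD, n = 6) in 2-mo WT, 0.751 ± 0.285 CPM in HGPS and 0.679 ± 0.251 CPM in 24-mo WT. Against the same 2-mo WT mice it was lower with no overlap in both. The difference was -2.29 ± 0.28 on the log2 scale in HGPS (adjusted p = 4.92e-06). In 24-mo WT the difference was -2.42 ± 0.29 (adjusted p = 1.2e-05). These calls rested on few counts, with means per library of 62.17 in 2-mo WT, 17.17 in HGPS and 11.83 in 24-mo WT. Jag2, a Serrate-type ligand like Jag1, was higher in both, from 3.24 ± 0.791 CPM in 2-mo WT to 5.49 ± 2.22 CPM in HGPS (0.75 ± 0.27, adjusted p = 0.0342) and 9.22 ± 3.59 CPM in 24-mo WT (2.83-fold, adjusted p = 0.00102). The Jag2 call in HGPS was lost without any 1 of HGPS replicates 1 and 6 and 2-mo WT replicates 1 to 3, with adjusted p up to 0.106 in those fits. It was also lost with the marker covariates (0.34, adjusted p = 0.557) and with the length covariate (0.98, adjusted p = 0.0675).

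Of 13 genes of ligand uptake and Notch trafficking, 7 were lower and 2 higher in HGPS, beside 21.2% and 22% of all genes, and 3 differed with age, beside 11.7%. The Deltex ubiquitin ligases Dtx3 (-0.67 ± 0.11, adjusted p = 9.4e-05) and Dtx3l (-0.44 ± 0.08, adjusted p = 0.00023) were lower than in 2-mo WT with no overlap. Against 24-mo WT, the largest falls in this group past the cut-offs were Numbl, an adaptor that restrains Notch (-0.66 ± 0.10, adjusted p = 2.34e-05), Dtx1 (-1.17 ± 0.18, adjusted p = 4.08e-05) and Mib2, a ligase that sends ligands into endocytosis (-0.64 ± 0.10, adjusted p = 6.4e-05). The glycosyltransferases had 2 of 5 lower in HGPS, beside 21.2% of all genes, and 1 of 5 lower with age, beside 5.38%.

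The cleavage group holds the convertase Furin, the sheddases and the subunits of γ-secretase. It had 2 of 10 higher in HGPS, beside 22% of all genes, 2 of 10 lower with age, beside 5.38%, and 6 of 10 higher in HGPS than in 24-mo WT, beside 23.8%. Adam17, a sheddase, was at 71.2 ± 6.72 CPM in 2-mo WT, 68.5 ± 4.56 CPM in HGPS and 53.2 ± 3.03 CPM in 24-mo WT, and the fall with age was -0.42 ± 0.07 on the log2 scale (adjusted p = 0.000214) with no overlap. The nuclear complex had 1 of 10 lower in HGPS, beside 21.2% of all genes, and 0 of 10 differing with age, beside 11.7%, where RBPJ itself, encoded by Rbpj, did not pass the test in any comparison. The corepressors had 1 higher and 2 lower of 8 in HGPS and 1 higher of 8 with age, beside 22% and 21.2% of all genes in HGPS and 6.29% with age. Counts of Aph1b and Aph1c, near copies of one another, are uncertain.

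**Figure D5:**
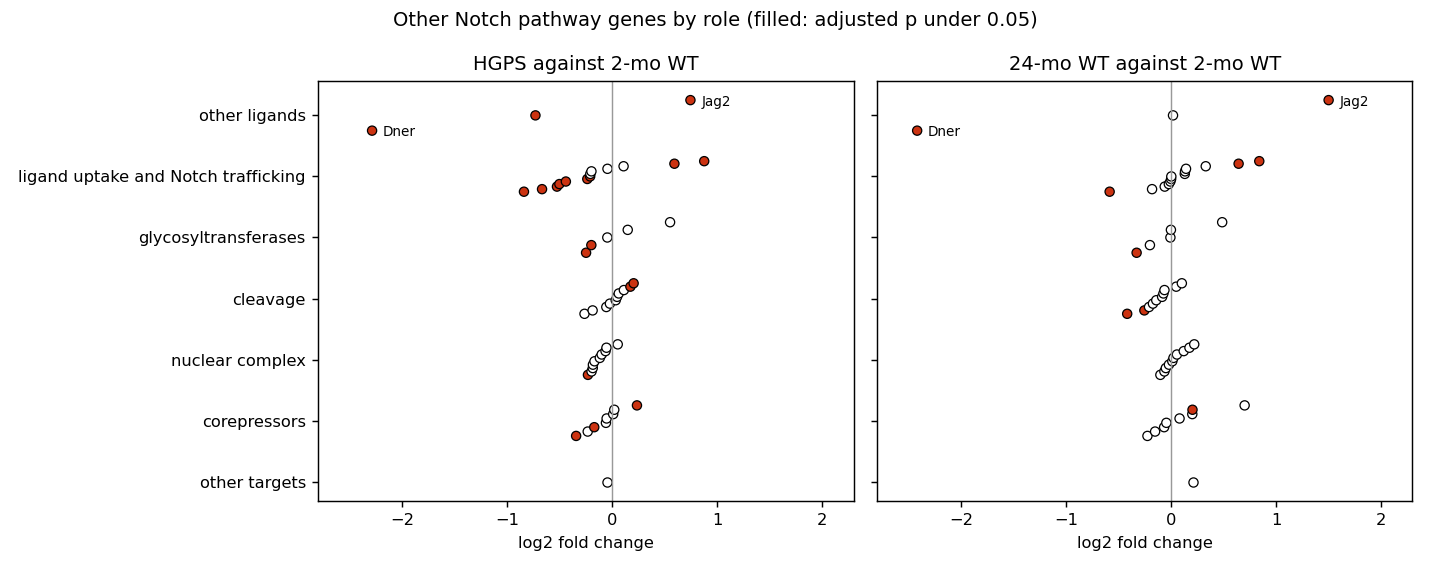
The horizontal axis gives the log2 fold change of the 50 other pathway genes and the vertical axis their role, for HGPS and for 24-mo WT, each against 2-mo WT. Each point is 1 gene and filled points have an adjusted p under 0.05 (20 and 9 genes). Dner lies farthest left in both panels and Jag2 farthest right in the 24-mo panel.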

How the data were processed

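Descending aortas of 18 mice were sequenced as paired-end, stranded total RNA libraries after ribosomal RNA removal. Per the study's methods, the authors ran salmon against the transcript set of GENCODE M23 (build GRCm38.p6), collapsed the result to genes by tximport and deposited estimated counts, here whole and not normalized; they tested with DESeq2. The submitters' processing notes also name Bowtie 0.12.2, with no role given. Symbols, coordinates and transcript lengths came from GENCODE M21, which holds 54107 of the 54281 identifiers.

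Groups came from the labels. Genes reaching 10 counts in 6 or more libraries were tested over all 18 libraries with the quasi-likelihood test of edgeR 4.0.16 (R 4.3.3) on TMM-scaled counts, with 15 residual degrees of freedom and Benjamini-Hochberg adjustment over all genes. The standard error is the log2 fold change over the square root of F. Log2 CPM used a prior count of 2. TPM values were computed from counts and transcript lengths. The tests were checked on simulated data. Alternatives were DESeq2 1.42.0, other scalings and filters, covariates, a replicate block and leaving out each mouse. The named genes were all members, other pathway genes past the cut-offs of the study in any comparison or among the 3 smallest adjusted p in one, and the 3 genes nearest to each member, among those with a mean of at least 100 counts, of which 1 is not reported here. The members and all lists were chosen with earlier results of these data known. Same-numbered mice are different animals. No libraries were duplicates: chi-square per degree of freedom was 8.09 to 92.0 over the 45 pairs within groups.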

Additional observations from a re-analysis of the deposited data

Results flagged for a closer look

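Of 30 combinations of member and group, 2 held a mouse far from the other 5; chance alone gives about 1 in 20. Notch4 in 2-mo WT replicate 2 was at 4.798 CPM, with the next mouse at 12.21 CPM, and the same library had the lowest endothelial marker sum of its group, 727.8 CPM. Heyl in HGPS replicate 6 was at 52.99 CPM, with the next mouse at 86.95 CPM, and that library also had the lowest smooth muscle sum of its group, 24480 CPM. The part of these sums in the low values was not tested.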

How the results depend on the processing

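Of 810 member fold changes under 27 alternatives each, 750 kept their direction and side of the threshold, 38 lost the threshold, 4 gained it and 18 changed sign, all 18 in results that did not differ. The length covariate was added after the data were seen; it took the members differing in HGPS to 2 against 2-mo WT and 2 against 24-mo WT, those past the study's cut-offs to 0 and 0, and the other pathway genes differing to 12 and 9. The marker covariates left 0 and 1 members past the cut-offs, 1 member differing with age, and 9, 5 and 11 other pathway genes differing in HGPS, with age and in HGPS against 24-mo WT. DESeq2 put 2 members past the cut-offs in HGPS against 2-mo WT and the filter of 50 counts 0. Fitting only the groups compared left 0 members differing with age and 1 past the cut-offs in HGPS against 24-mo WT. Leaving out 1 mouse gave 0 to 2 and 1 to 3 members past the cut-offs in HGPS against 2-mo and 24-mo WT, and 1 to 2 differing with age. The cause of these shifts was not tested.

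Same-numbered mice did not deviate together (r = -0.162 to 0.172), so the numbers do not pair them; with a replicate block 1 member differed with age, against 2 without it.

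Sign changes with the length covariate were Notch1 (-0.062) and Notch4 (-0.28) in HGPS against 24-mo WT, and Jag1 (-0.045) and Heyl (-0.033) with age. With the marker covariates they were Jag1 (-0.050) and Dll4 (0.057) with age and Dll4 in HGPS against 2-mo WT (-0.27) and 24-mo WT (-0.33). Leaving out 1 mouse, the fold change with age ran from -0.022 to 0.057 for Jag1, -0.25 to 0.12 for Dll4, -0.18 to 0.027 for Hey1 and -0.069 to 0.14 for Heyl, and that of Notch1 in HGPS against 24-mo WT from -0.028 to 0.13.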
